A study of Mus musculus with 4 samples.

Results

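Notch receptors, their ligands, the Hes and Hey repressors that they switch on and the Fringe enzyme Lfng were followed across 4 RNA libraries of mouse cortical neurospheres. The 10 genes were taken by gene name from chromosomes 1 to 19 of the deposited table of 55599 entries, and each of Notch1, Notch2, Notch3, Dll1, Dll3, Jag1, Hes1, Hes5, Hey1 and Lfng had 1 entry there. The cells came from the cortex of C57BL/6 embryos at embryonic day 12.5 and were grown as neurospheres (floating clusters of neural stem and progenitor cells) to passage 3. There were 2 wild-type (WT) libraries and 2 libraries from LncBAR-KO (KO) cells, in which the long noncoding RNA LncBAR was knocked out, and no agent is named for either group. The labels give neither the knockout allele nor the sex, litter or pooling of the embryos. Nor do they tie each library to a culture or embryo of its own, and p-values therefore measure no more than how far these 4 libraries spread, a spread that may be technical.

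Notch signalling passes between touching cells. A Delta or Jagged ligand on a neighbouring cell pulls on the receptor, proteases of the ADAM family and gamma-secretase then cut it, and the freed intracellular domain joins the DNA-binding protein RBPJ and Mastermind coactivators in the nucleus. In the embryonic cortex this induces Hes and Hey repressors, which hold down proneural genes and Delta ligands and so keep radial glia, the stem cells of the cortex, undifferentiated. Fringe enzymes add sugars to the receptors and change how well they answer Delta and Jagged ligands.

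Depth was close to even, from 17244057 to 18280445 counts per library. Of the labelled cells' markers, all 9 radial glia and cortex genes passed the expression filter (a mean of at least 1 FPKM, a level scaled for gene length and library size), led by Fabp7 at 1340 to 1614 FPKM. No entry carried the name LncBAR, and the labels of genotype were therefore left unchecked by it. Xist, the RNA of the inactive X chromosome, was counted 36766 and 31563 times in WT but only 7 and 4 times in KO. Ddx3y, Eif2s3y, Kdm5d and Uty on the Y chromosome had 0 counts in both WT libraries and 517 to 1847 in the KO libraries. Genotype and this difference in sex chromosomes cannot be told apart in any comparison below. In bulk RNA, fewer cells of a type and less RNA per cell cannot be told apart either.

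The sequences upstream of Hes5 and Lfng are shown because these were the genes of lowest and highest level among the 10 and both contain the letters of an RBPJ site. RefSeq start sites (build GRCm38.p6) were matched for 8 of 10 genes; Hes1 and Hey1 were not matched. The motif searched was GTGGGAA on either strand, so that TTCCCAC counts as well. Each line gives the 250 bases before the start site, 5′ to 3′ on the strand of the gene, with RBPJ matches in capitals. Hes5 lies on the plus strand at chr4:154960673-154960922 and Lfng on the plus strand at chr5:140607091-140607340.

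Hes5: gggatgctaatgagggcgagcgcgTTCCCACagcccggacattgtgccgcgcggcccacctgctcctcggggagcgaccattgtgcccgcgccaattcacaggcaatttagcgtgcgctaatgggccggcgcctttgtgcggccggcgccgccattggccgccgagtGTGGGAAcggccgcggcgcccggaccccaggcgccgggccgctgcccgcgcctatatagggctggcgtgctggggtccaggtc
Lfng: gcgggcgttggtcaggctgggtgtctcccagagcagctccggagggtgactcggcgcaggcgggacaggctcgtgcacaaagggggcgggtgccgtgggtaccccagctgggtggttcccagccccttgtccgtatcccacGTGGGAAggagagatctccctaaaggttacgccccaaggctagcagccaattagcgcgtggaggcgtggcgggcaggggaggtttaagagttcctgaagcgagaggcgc

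Hes5 held 2 matches, at bases -226 to -220 on the opposite strand and at -83 to -77 on its own strand, counted from the start site. Lfng held 1, at -109 to -103, which overlapped a match to CACGTG, the class B E-box bound by basic helix-loop-helix repressors, at -112 to -107. Of 32851 RefSeq upstream windows of the same length, 5.42% held at least 1 GTGGGAA and 0.161% held 2 or more, while 6.02% held CACGTG. The other 6 windows, of Notch1, Notch2, Notch3, Dll1, Dll3 and Jag1, held neither motif. The N-box CACNAG (or CTNGTG), another sequence known to bind Hes proteins, occurred in Notch1, Notch2, Notch3 and Lfng and in 36.7% of all windows. For Notch1 the RefSeq start site lay 12841 bases from the 5′ end of the gene model in the deposited table. A match is a run of letters and does not show binding.

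**Figure D1:**
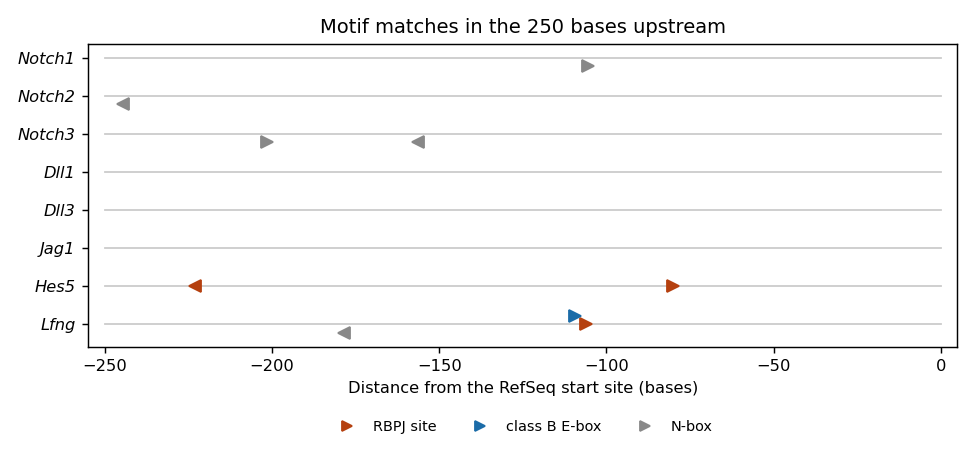
Motif matches in the 250 bases upstream of 8 genes; the x axis is the distance in bases from the RefSeq start site, arrowheads point right for a match on the strand of the gene and left for the opposite strand. RBPJ matches appear only for Hes5 (2) and Lfng (1), the latter beside the single E-box match.

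Levels of the 10 genes were compared per length, in the authors' FPKM. Lfng was highest, at 73.1 and 79.8 FPKM in WT replicates 1 and 2 and 73.0 and 82.9 FPKM in KO replicates 1 and 2. Hey1 came next at 65.9, 50.9, 62.8 and 60.9 FPKM in the same order of libraries, and Hes5 was lowest at 4.91, 7.58, 5.95 and 3.63 FPKM. Lfng stood above Hey1, Hey1 above Dll1 and Notch2 above Hes5 with no overlap of the 4 libraries. Between these, Dll1, Hes1, Notch3, Notch1, Dll3, Jag1 and Notch2 followed in order of mean FPKM, and each of these neighbours overlapped the next. The order in single libraries departed from that of the means in WT replicate 1, where Notch3 was above Hes1, and in KO replicate 2, where Hes1 was above Dll1 and Jag1 above Dll3. The highest library exceeded the lowest by 1.14-fold for Lfng and by 2.09-fold for Hes5.

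**Figure D2:**
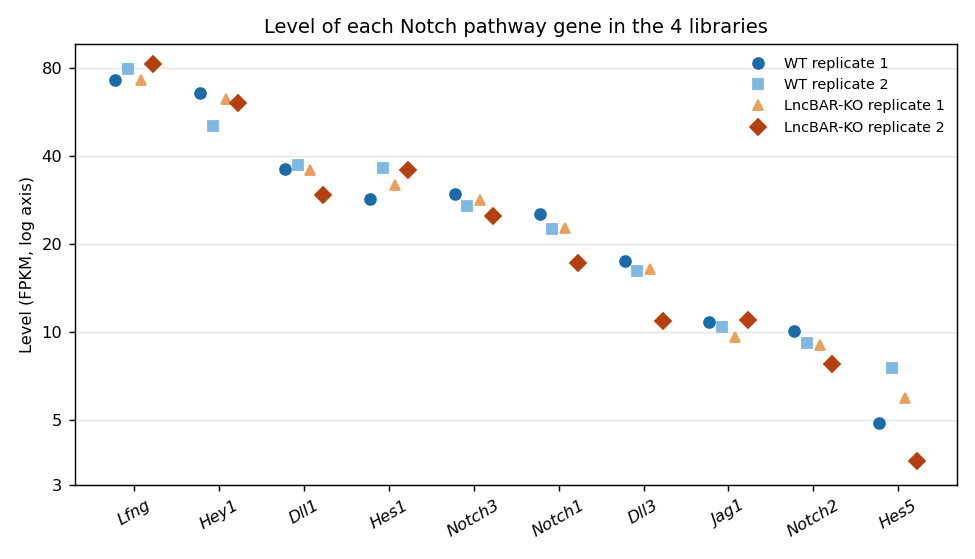
FPKM (log axis) of the 10 genes in each of the 4 libraries, 1 point per library, ordered by mean level. Lfng and Hey1 lie above all the others and Hes5, at 3.63 to 7.58 FPKM, below all the others.

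The comparison of KO with WT asks whether RNA levels of the pathway differ in neurospheres without LncBAR. None of the 10 genes passed an adjusted p of 0.05 in edgeR's quasi-likelihood test, where 9 of 12997 genes tested (0.0692%) passed. The 9 included Xist and the 4 Y genes named above. With chromosomes X and Y left out, 1 of 12545 genes passed. In the fit of all 12997 genes none of the 10 had an unadjusted p under 0.05, against 5.92% of all genes tested. Other edgeR fits placed some of the 10 under that unadjusted threshold, 3 without the expression filter, 1 with a filter of at least 5 FPKM, 4 with a replicate block, and 2, 3, 5 and 0 when WT replicates 1 and 2 and KO replicates 1 and 2 were left out in turn. None of them passed after adjustment. DESeq2 and limma on log2(FPKM + 1) called 0 of the 10 as well, with 1 and 0 at an unadjusted p under 0.05. The log2 fold change (KO over WT) was below 0 for 7 of the 10, against 49.0% of all genes tested. Its median was -0.14 over the 10 and 0.00 over all genes tested. The 2 genotypes did not overlap in CPM (counts scaled to library size) for 2 of the 10, against 36.8% of all genes; both were lower in KO (18.7% of all genes) and none was higher (18.1% of all genes). For all 10 the larger of the differences between libraries of 1 genotype exceeded the difference between the genotype means, as it did for 76.8% of all genes. All 10 had a 95% interval that stayed inside a 2-fold change in both directions, as did 11809 of the 12997 genes.

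The receptors Notch1, Notch2 and Notch3 bind the ligands and carry the intracellular domain that signals. Notch1 (chromosome 2, 26457903 to 26516663, mm10) had 25.5 and 22.5 FPKM in WT and 22.7 and 17.3 FPKM in KO. KO replicate 2 was the lowest library and KO replicate 1 lay within the WT range, so the genotypes overlapped. Its log2 fold change was -0.27 ± 0.12 (SE, n = 2 per genotype; 95% interval -0.54 to 0.01; edgeR adjusted p = 0.811). Notch2 (chromosome 3, 98013527 to 98150361) had 10.1 and 9.19 FPKM in WT and 9.02 and 7.77 FPKM in KO. The genotypes did not overlap, but WT replicate 2 and KO replicate 1 were almost level. The log2 fold change of Notch2 was -0.21 ± 0.10 (SE; 95% interval -0.42 to 0.01; edgeR adjusted p = 0.811). Notch3 (chromosome 17, 32120820 to 32166852), a receptor also known from vascular mural cells, had 29.8 and 27.1 FPKM in WT and 28.4 and 24.9 FPKM in KO. These overlapped, and the log2 fold change was -0.10 ± 0.09 (SE; 95% interval -0.31 to 0.11; edgeR adjusted p = 0.881). The size of all 3 receptor differences moved with the KO library left out. Without KO replicate 1 the log2 fold changes were -0.48 (Notch1), -0.33 (Notch2) and -0.20 (Notch3), and without KO replicate 2 they were -0.08, -0.10 and -0.00072. Leaving out a WT library gave -0.17 and -0.36 for Notch1, -0.13 and -0.28 for Notch2, and -0.024 and -0.17 for Notch3 (WT replicates 1 and 2 in turn).

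Mural cells and endothelium, which also carry Notch receptors, left little RNA in these libraries. Of the 5 mural markers, Kcnj8 had 0 counts in every library, Pdgfrb had 3 to 9 counts and only Acta2, which other cell types share, passed the filter. The summed level of the mural list was 4.27 to 4.85 FPKM in WT and 5.24 to 6.39 FPKM in KO, nearly all of it Acta2. Of the 5 endothelial markers, Cdh5 had 0 counts in every library, and the list summed to at most 0.684 FPKM. Notch4, the endothelial receptor, was at 0.433, 0.491, 0.538 and 0.441 FPKM. Kcnj8, Pdgfrb and Cdh5 were named after their values were seen.

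As shares of the summed FPKM of the 4 receptors, Notch3 took 45.3% and 45.7% in WT and 46.8% and 49.5% in KO. Notch1 took 38.7% and 38.0% in WT and 37.4% and 34.3% in KO, and Notch2 14.9% to 15.5% in all libraries. Notch3 was thus the most abundant receptor RNA per length in each of the 4 libraries, with 1.17 to 1.44 times the FPKM of Notch1. The difference in the Notch1 share (KO minus WT) was -2.50 percentage points with all libraries, -4.07 without KO replicate 1 and -0.93 without KO replicate 2. The shares were not tested, since 0.333 is the smallest two-sided p that an exact permutation of 2 against 2 libraries allows.

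**Figure D3:**
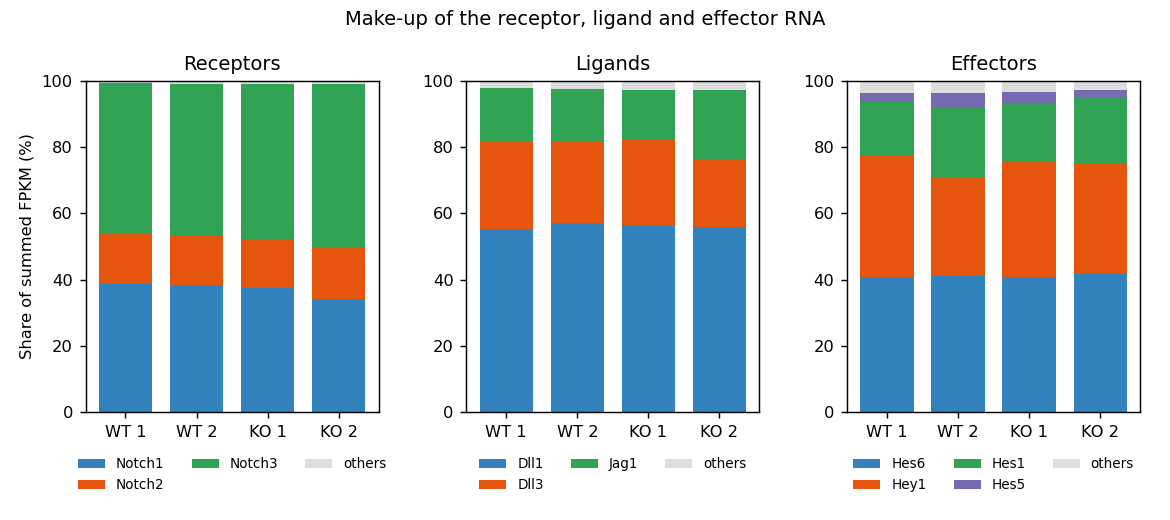
Stacked shares (%) of the summed FPKM of receptors, ligands and effectors in each library, with genes of low level pooled as others. Notch3 and Notch1 make up most receptor RNA, Dll1 55.0% to 57.0% of ligand RNA, and Hes6, Hey1 and Hes1 most effector RNA in all 4 libraries. Hes6 is listed with the effectors although it is known to oppose Hes1.

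Among the ligands, Dll1 activates Notch on the neighbouring cell, Dll3 is a divergent Delta protein that acts inside the cell and does not activate Notch from outside, and Jag1 is a Jagged ligand. Dll1 (chromosome 17, 15367354 to 15376872) had 36.3 and 37.5 FPKM in WT and 35.8 and 29.6 FPKM in KO. Both KO libraries were below both WT libraries, KO replicate 1 only slightly. The log2 fold change of Dll1 was -0.18 ± 0.10 (SE, n = 2 per genotype; 95% interval -0.40 to 0.04; edgeR adjusted p = 0.830), and it became -0.33 when KO replicate 1 was left out and -0.04 when KO replicate 2 was. Dll3 (chromosome 7, 28293553 to 28302238) had 17.5 and 16.2 FPKM in WT and 16.4 and 10.9 FPKM in KO. KO replicate 1 lay between the WT libraries and KO replicate 2 alone was low. The log2 fold change of Dll3 was -0.31 ± 0.16 (SE; 95% interval -0.65 to 0.04; edgeR adjusted p = 0.813); leaving out KO replicate 1 made it -0.63 (adjusted p = 0.0608) and leaving out KO replicate 2 made it -0.04. Jag1 (chromosome 2, 137081456 to 137116644) had 10.8 and 10.4 FPKM in WT and 9.66 and 11.0 FPKM in KO, and the KO libraries enclosed the WT range. Its log2 fold change was -0.05 ± 0.09 (SE; edgeR adjusted p = 0.938), and its sign turned without KO replicate 1 (0.04).

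Dll1 held 55.0% and 57.0% of the summed ligand FPKM in WT and 56.3% and 55.9% in KO, so its share hardly differed between libraries. Dll3 held 26.5% and 24.6% in WT and 25.8% and 20.7% in KO, and Jag1 16.4% and 15.9% in WT and 15.2% and 20.8% in KO. The remaining ligands Dll4, Jag2 and Dlk2 were each under 1 FPKM in every library, and Dlk1 had 0 counts in all 4. Jag2, the highest of these by the mean of the 4 libraries, was at 0.659, 0.511, 0.648 and 0.614 FPKM, and Dll4 was above it in WT replicate 2, at 0.730 FPKM.

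Hes1, Hes5 and Hey1 encode basic helix-loop-helix repressors that Notch induces. Hes1 (chromosome 16, 30064384 to 30067796) had 28.5 and 36.4 FPKM in WT and 31.8 and 36.0 FPKM in KO, both KO libraries lying within the WT range. Its log2 fold change was 0.06 ± 0.12 (SE, n = 2 per genotype; 95% interval -0.20 to 0.31; edgeR adjusted p = 0.943), and its sign turned without WT replicate 1 (-0.10) or KO replicate 2 (-0.03). Hey1 (chromosome 3, 8663359 to 8667256) had its highest and its lowest library within WT. The log2 fold change of Hey1 was 0.08 ± 0.11 (SE; 95% interval -0.18 to 0.33; edgeR adjusted p = 0.924), and its sign turned without WT replicate 2 (-0.10). Hes5 (chromosome 4, 154960923 to 154962371), the effector whose RNA is used most often as a sign of Notch activity in cortical progenitors, rested on few reads, with counts of 121 and 180 for WT and of 142 and 89 for KO. The exact 95% Poisson intervals of these counts, which cover counting error only, were 100.4 to 145 and 155 to 208 in WT and 120 to 167 and 71.5 to 109.5 in KO. WT replicates 1 and 2 did not overlap by these intervals and neither did the 2 KO libraries. The log2 fold change of Hes5 was -0.39 ± 0.27 (SE; 95% interval -0.99 to 0.22; edgeR adjusted p = 0.839), and it ranged from -0.79 (KO replicate 1 left out) to -0.05 (WT replicate 2 left out), with -0.07 where KO replicate 2 was left out. Its interval was the widest of the 10 genes.

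Per length, Hey1 RNA was 6.72 to 16.8 times as abundant as Hes5 RNA and Hes1 RNA 4.80 to 9.93 times as abundant, with the highest ratios in KO replicate 2. Of the summed FPKM of the 10 listed effectors, Hes6 took 40.7% to 41.7%, Hey1 29.6% to 36.9%, Hes1 15.97% to 21.2% and Hes5 2.01% to 4.41%. This list counts Hes6 and the feedback inhibitor Nrarp with the other effectors, so the shares do not measure Notch output. Hes6, a relative of Hes1 that is known to oppose it and to favour differentiation, was at 72.5 and 70.5 FPKM in WT and 73.3 and 75.3 FPKM in KO, with no overlap (log2 fold change 0.05 ± 0.08, SE, edgeR adjusted p = 0.930).

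Lfng (chromosome 5, 140607320 to 140615545) encodes lunatic fringe, which extends the fucose on Notch repeats. Its log2 fold change was 0.02 ± 0.09 (SE, n = 2 per genotype; 95% interval -0.18 to 0.22; edgeR adjusted p = 0.973), and its sign turned without WT replicate 1 (-0.04) or KO replicate 2 (-0.07). The lowest and the highest library were both KO libraries, so the genotypes overlapped. Lfng made up 78.5% and 79.2% of the summed FPKM of the Fringe genes in WT and 77.5% and 82.0% in KO. Rfng was at 11.1 to 12.2 FPKM and Mfng at 7.18 to 9.16 FPKM over the 4 libraries.

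**Figure D4:**
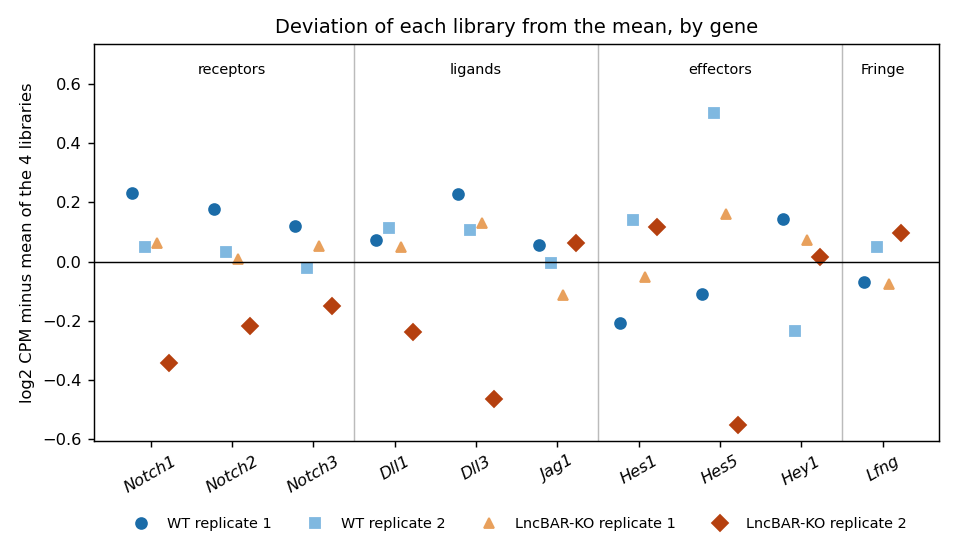
Deviation of each library's log2 CPM from the mean of the 4 libraries for the 10 genes, grouped by role, 1 point per library. KO replicate 2 is the lowest point for all 3 receptors, Dll1, Dll3 and Hes5, and lies above 0 for Jag1, Hes1, Hey1 and Lfng.

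KO replicate 2 was the lowest of the 4 libraries for 6 of the 10 genes, against 30.3% of all genes tested. The median deviation of the 10 genes from the mean of the 4 libraries was 0.10 and 0.05 log2 units in WT replicates 1 and 2, 0.05 in KO replicate 1 and -0.18 in KO replicate 2. Over all genes tested these medians were 0.00 in each library. Leaving out KO replicate 2 brought the median log2 fold change of the 10 genes to -0.06, and leaving out KO replicate 1 brought it to -0.26. In KO replicate 2 the receptors were at -0.34 (Notch1), -0.22 (Notch2) and -0.15 (Notch3) log2 units from their own mean, and the Delta ligands at -0.24 (Dll1) and -0.46 (Dll3). Hes5 was at -0.55, while Hes1 was at 0.12 and Lfng at 0.10.

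Some markers of glial cells were also low in KO replicate 2. It was the lowest library for 4 of 4 astrocyte and 3 of 4 oligodendrocyte lineage markers. The same held for 3 of 9 radial glia and cortex markers and for 30.3% of all genes tested. The 4 astrocyte markers, all tested, summed to 45.9 and 36.9 FPKM in WT and 39.5 and 30.3 FPKM in KO, and each was lowest in KO replicate 2; Aldh1l1, their highest, was at 36.5, 28.9, 30.4 and 24.1 FPKM. Of the 4 oligodendrocyte lineage markers, Sox10 was at 12.1 and 9.97 FPKM in WT and 10.9 and 6.59 FPKM in KO, and Pdgfra and Cspg4 were lowest in KO replicate 2 as well. Olig2, the most abundant of these, was highest there, at 178 FPKM, so that the list summed to 197 to 207 FPKM in WT and 200.05 to 206 FPKM in KO. The 9 radial glia and cortex markers summed to 2666 to 2762 FPKM in WT and 2859 to 2963 FPKM in KO. Fabp7 was the largest part of this sum, at 1340 and 1397 FPKM in WT and 1482 and 1614 FPKM in KO. By log2 fold change, 5 of the 9 were below 0 and 4 above. Without overlap of the genotypes, 2 were lower and 1 higher in KO, against 18.7% and 18.1% of all genes tested. Whether these markers have a part in the low Notch, Delta and Hes5 values of KO replicate 2 was not tested. Sox10, Pdgfra and Cspg4 were named after their values were seen. Of the other lists, intermediate progenitor markers were led by Btg2 (50.8 to 58.7 FPKM) and neuronal markers by Map2 (36.0 to 39.4 FPKM). Only 2 of the 4 intermediate progenitor markers and 2 of the 6 neuronal markers passed the filter. Among those below it, Eomes had 3 to 9 counts and Stmn2 1 to 6 counts. Eomes and Stmn2 were named after their values were seen. Microglial markers, led by P2ry12, summed to at most 0.347 FPKM and meningeal fibroblast markers, led by Col1a1, to at most 0.762 FPKM; Kdr led the endothelial list at 0.405 to 0.468 FPKM.

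The other genes of the pathway were 43 in number, of which 32 passed the expression filter. None of these passed in edgeR, DESeq2 or limma on log2(FPKM + 1), and 1 had an unadjusted p under 0.05 in each of the 3. Their median log2 fold change was -0.03, with 21 below 0 and 11 above, against 49.0% of all genes tested below 0. Without overlap of the genotypes, 7 were lower and 4 higher in KO, against 18.7% and 18.1% of all genes tested. KO replicate 2 was the lowest library for 17 of the 32, against 30.3% of all genes tested. The 1 gene with an unadjusted p under 0.05 in edgeR was Spen, which encodes a large corepressor that binds RBPJ when Notch is off. Spen was at 9.83 and 8.79 FPKM in WT and 8.19 and 6.78 FPKM in KO, with no overlap and KO replicate 2 again the lowest (log2 fold change -0.32 ± 0.11, SE, edgeR adjusted p = 0.811).

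**Figure D5:**
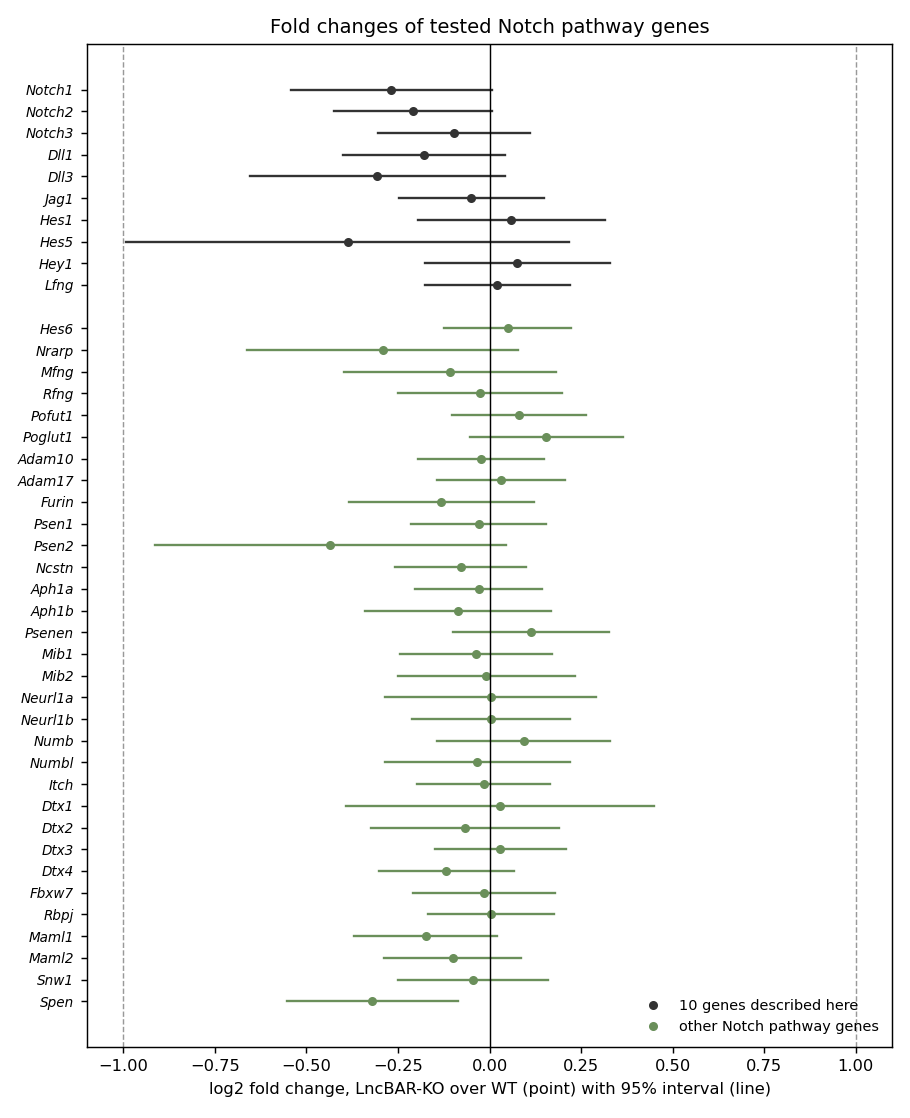
Log2 fold change, KO over WT, of the 10 genes (dark) and 32 other tested pathway genes (green), with the 95% interval from edgeR as a line and dashed lines at a 2-fold change. All points lie between -0.43 (Psen2) and 0.16 (Poglut1), and of the 42 intervals only that of Spen does not reach 0.

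In the nuclear complex 5 of 6 genes were tested and 0 passed. Rbpj itself was at 8.12, 7.96, 8.16 and 8.03 FPKM, with a log2 fold change of 0.00 ± 0.08 (SE, edgeR adjusted p = 0.997). The Mastermind genes Maml1 (-0.17 ± 0.09) and Maml2 (-0.10 ± 0.08; log2 fold change ± SE) had both KO libraries below both WT libraries, and their edgeR adjusted p-values were 0.813 and 0.853. In the cleavage group all 9 genes were tested and 0 passed, with 7 below 0. Psen2, a catalytic subunit of gamma-secretase, was at 1.20 and 1.497 FPKM in WT and 0.989 and 1.01 FPKM in KO (log2 fold change -0.43 ± 0.22, SE, edgeR adjusted p = 0.813). Psenen, the most abundant subunit gene of this group, was at 39.3 and 42.3 FPKM in WT and 40.9 and 47.6 FPKM in KO (log2 fold change 0.11 ± 0.10, SE, edgeR adjusted p = 0.858).

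In the group for endocytosis and ubiquitination all 12 genes were tested, 0 passed and 7 were below 0; their fold changes lay between -0.12 and 0.09 on the log2 scale. Dtx3, a Deltex ubiquitin ligase and the most abundant of them, was at 36.1, 34.9, 37.4 and 35.3 FPKM. All 4 glycosylation genes were tested, 2 above and 2 below 0, and 0 passed. Of the 7 other effectors only Hes6 and Nrarp were tested. Nrarp, a feedback inhibitor that Notch induces, was at 4.20 and 4.40 FPKM in WT and 3.80 and 3.25 FPKM in KO, which did not overlap (log2 fold change -0.29 ± 0.17, SE, edgeR adjusted p = 0.830). Nrarp was named after its values were seen.

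In the authors' deposited table the comparison of KO with WT gave Notch1 a log2 fold change of -0.26 with a p-value of 0.0290, the smallest among the 10 genes. Its adjusted p-value in the authors' deposited table was 1.00 after rounding, as it was for the other 9. Other entries of the table overlap 4 of the 10 genes. The antisense RNA 0610009E02Rik at the end of Notch1 had 7 to 18 counts, Gm17276 over Notch3 0 to 4 counts and Gm20421 over Hes5 0 to 4 counts, and Gm42819 and Gm42820 within Notch2 1 to 12 counts. The kit did not mark strand, so reads of a gene and of its antisense partner cannot be told apart.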

How the data were processed

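Polyadenylated RNA was sequenced in read pairs of 150 bases from 2 WT and 2 LncBAR-KO libraries, using an unstranded kit, per the labels' protocols. Cutadapt 1.16, TopHat2 2.1.1 and Cufflinks 2.2.1 with build mm10 are listed per the submitters' processing notes; the counter and the annotation were not given in the sources used here. The authors deposited whole-number counts, FPKM, a mean signal per genotype (not used here), and a log2 fold change with p-values per gene, per the file headers.

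Counts were tested in edgeR 4.0.16 (R 4.3.3; quasi-likelihood, TMM, genotype only) over 12997 genes with a mean FPKM of at least 1, with Benjamini-Hochberg adjustment over all of them and a threshold of 0.05. An SE is the size of the log2 fold change over the square root of F; intervals use the fit's 10.4 total degrees of freedom. The steps were tested on simulated counts of 12997 genes, with 50 genes changed at each size of change. They recovered 60% of 1.5-fold and 86% of 2-fold changes, and 25 unchanged genes were called. Every 2 libraries differed by more than counting noise (chi-square per degree of freedom 7.57 to 17.4), so none was taken as a duplicate. Alternatives were DESeq2 1.42.0, limma 3.58.1 on log2(FPKM + 1) or log2(FPKM + 0.1), other scalings and filters, no sex chromosomes, a replicate block and leaving out each library.

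The members and lists were chosen with earlier results of these data known. All members are named; of the other pathway genes, those past the threshold, the 3 of smallest p and the highest in each role; of each marker list, the highest, except 1 list that is not reported here. Rbpj, Mfng, Poglut1, Dll4, Dlk1, Dlk2 and those marked in the text lie outside this rule and were chosen with their values in view.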

Additional observations from a re-analysis of the deposited data

How the results depend on the processing

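No member and no other pathway gene passed in any of the 14 other settings. In the 10 settings that kept all 4 libraries the 7 members below 0 and the 3 above 0 kept their signs, and the members' median log2 fold change was -0.15 to -0.13. Leaving out 1 library gave medians of -0.26 to -0.056, and ranges that crossed 0 for Hes1 (-0.10 to 0.24), Lfng (-0.068 to 0.11), Hey1 (-0.10 to 0.28) and Jag1 (-0.14 to 0.037). These fits take the spread of the single remaining library from the other genotype. The number of genes called was 9 as reported, 31 without the filter, and 4 and 3 in limma with pseudocounts of 1 and 0.1. With 1 library left out it was 15 and 22 without KO replicates 2 and 1, and 51 and 86 without WT replicates 2 and 1. The cause of these differences was not tested. Without chromosomes X and Y the number called was 1. That fit left out Xist and the 4 Y genes, which were among the 9. With a replicate block 24 genes passed and the smallest adjusted p of a member was 0.180 (Notch1, edgeR); the titles share numbers only, and same-numbered libraries had deviations correlated at r = 0.09 across genes. Among the 10 members, depth limits Hes5 most, with 89 to 180 counts. Of the other pathway genes tested, Psen2 had 75 to 113 counts.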

Other observations

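HeyL, an effector induced by Notch receptors, lay below the expression filter. Heyl had 78 and 91 counts in WT and 50 and 36 counts in KO, or 0.844 and 1.02 FPKM in WT and 0.558 and 0.391 FPKM in KO, with no overlap. In edgeR without the filter its log2 fold change was -0.97 with an adjusted p of 0.337; it was named after its values were seen.

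The profile of Hes5 over the 4 libraries was set beside those of 7794 autosomal genes with a mean of at least 5 FPKM, by the root mean square distance of the log2 CPM deviations. The nearest were Gm49326 (0.15), Bcas1 (0.17) and Gm24060 (0.19), against a median distance of 0.40 over all genes compared. A gene at the same level in all 4 libraries would lie 0.39 from Hes5, almost as far as that median. Bcas1 was at 7.97 and 9.38 FPKM in WT and 9.74 and 5.99 FPKM in KO. With 4 libraries such likeness is a description only, and none of the 3 passed the test of KO against WT (edgeR adjusted p of 0.811 to 0.966).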
